A study of Rattus norvegicus with 12 samples.

Results

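Oxygen-induced retinopathy (OIR) was compared with sham in rat retinas that had received a scrambled control RNA. The comparison rests on 6 RNA-seq libraries, 3 labelled OIR and 3 labelled sham, out of 12 in the series. Genes were tested where at least 3 of the 6 libraries reached 1 TPM, a level in which read counts are divided by gene length and scaled to the same total in each library. By this rule 15298 of the 32883 genes in the deposited table were tested, and 21332 had a value above 0 in at least 1 of the 6 libraries.

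The rats were wild-type Sprague Dawley animals, and all 6 libraries were made from retina of postnatal day 18. The OIR group carried the label of oxygen-induced retinopathy and the sham group that of a control, and both received the same scrambled RNA. The other 6 libraries, from OIR and sham retinas given a mimic of the microRNA miR-143, entered the model for its estimate of the spread. The labels give neither the oxygen schedule nor the route of injection, and they leave unsaid whether the replicates are from different animals. The p-values therefore measure the spread between these libraries, which may be technical. The record of OIR replicate 3 lacks the tags for disease and transfection, and its group comes from its title. The record of OIR mimic replicate 1 lacks the disease tag as well.

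As background, OIR is a rodent model of the retinopathy of prematurity. Unstable or high oxygen during the weeks in which the retinal vessels grow leaves part of the retina without vessels, and the return to lower oxygen makes that tissue hypoxic. Hypoxia-inducible transcription factors then raise genes of glycolysis and of vessel growth, Müller glia become reactive, and abnormal vessels sprout towards the vitreous. Photoreceptors, the most numerous cells of the rodent retina, have phototransduction transcripts that are among its most abundant messages. The deposited table lists Ensembl identifiers without gene names, and 0 of them were matched to a symbol here. The results below are therefore given by level, size and library, and 4 genes by identifier. The labelled tissue was not checked against marker genes, and no sequence could be assigned to a gene.

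The 6 libraries held 11061403 to 12365577 reads on genes, as recovered from the steps of the TPM values. A gene of 2000 bases needed 1 read for each 0.0839 to 0.0984 TPM, so levels near 1 TPM rest on few reads. Along the leading principal component of log2(TPM + 1), with 45.1% of the variance, the sham libraries lay between -26.5 and -24.0. OIR replicates 1 and 2 lay at 17.0 and 15.8, and OIR replicate 3 stood apart at 43.0. Replicates differed by more than counting error, by a ratio of chi-square to degrees of freedom of 4.93 for OIR replicates 1 and 2. This ratio was 23.0 and 21.8 for OIR replicate 3 against each of them, and 6.19 to 11.9 between sham libraries. The numbers in the column names are lower for each sham library than for each OIR library, and what they stand for and the condition cannot be told apart.

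In OIR retinas 1100 genes were higher and 628 lower than in sham (limma, Benjamini-Hochberg adjusted p below 0.05). These 1728 genes were 11.3% of those tested, 7.19% higher and 4.11% lower. The 3 OIR libraries lay above the 3 sham libraries in 1098 of the 1100 higher genes and below them in 626 of the 628 lower genes. Over all genes tested, 20.1% had each OIR library above each sham library, and 13.2% had each below. The called genes were chosen from these same libraries, so their separation follows largely from the call and is a description. In a bulk retina, fewer cells of a type and less RNA per cell cannot be told apart. The median log2 fold change over all genes tested was 0.05.

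The balance of the directions moved with the scaling and the fit. Of the called genes 63.7% were higher with TPM as deposited. With median-ratio scaling it was 50.3% (of 1984), and with quantile normalisation 45.1% (of 2230). Within the 6 scrambled libraries alone, 747 genes were called higher and 599 lower. Without OIR replicate 3, 593 were called higher and 274 lower, and 557 and 267 of these were among the 1100 and the 628. Leaving out sham replicate 1, 2 or 3 left 948, 852 or 1097 called genes, of which 647, 566 or 717 were higher. Without OIR replicate 2 the numbers were 834 and 380. None of the 1728 genes had a fold change of the other sign under these settings, except 1 gene after quantile normalisation.

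The largest rise was that of ENSRNOG00000002946, over a recovered length of 863 bases. Its level was 0.684, 2.20 and 1.75 TPM in sham replicates 1 to 3 and 37.3, 39.0 and 83.4 TPM in OIR replicates 1 to 3. Each OIR library was at least an order of magnitude above each sham library, and OIR replicate 3 was the highest. The mean rose from 1.54 ± 0.777 to 53.2 ± 26.1 TPM (SD, n = 3). On the log2(TPM + 1) scale this was a rise of 4.36 (SE 0.50; limma adjusted p = 0.000987). The sham values rest on 23 reads in the 3 libraries together, and the OIR values on 768. The ratio of these sums, corrected for depth, was 34.0, with an exact (Clopper-Pearson) 95% interval of 22.5 to 54.0 that covers counting error only.

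ENSRNOG00000014350 rose next most, over a recovered length of 1984 bases. It stood at 4.07, 4.08 and 2.20 TPM in sham and at 104.7, 46.8 and 45.6 TPM in OIR replicates 1 to 3. Here OIR replicate 1 was the highest library, while the other two OIR libraries were close together. The means were 3.45 ± 1.08 TPM in sham and 65.7 ± 33.8 TPM in OIR (SD, n = 3). The rise in log2(TPM + 1) was 3.83 (SE 0.67; limma adjusted p = 0.00678). Both of these genes were called under each alternative setting that was run, with an adjusted p of at most 0.0261 for the first and 0.0369 for the second.

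ENSRNOG00000005826 fell most, over a recovered length of 570 bases. Its level was 44.5, 43.2 and 51.5 TPM in the sham libraries and 0.332, 0.609 and 0.625 TPM in the OIR libraries. The sham libraries were close together and the OIR libraries were near 0. The means were 46.4 ± 4.46 TPM in sham and 0.522 ± 0.165 TPM in OIR (SD, n = 3), and the log2 fold change was -4.96 (SE 1.02; limma adjusted p = 0.0139). The gene reached 1 TPM in the sham libraries alone, so it had to differ in level to be tested, and its p is given as a description. Over the 3 libraries of each group, 447 reads in sham stood against 5 in OIR, a ratio of 87.7 per depth. Its exact 95% interval for counting error ran from 37.3 to 271. In the retinas given the mimic, sham replicate 2 was at 0.566 TPM while the other two sham libraries were at 36.4 and 51.5 TPM. A low level of this gene was therefore also seen without OIR. Over the alternative settings the limma adjusted p ran from 1.40e-05, in the 6 libraries alone, to 0.179. The call was lost at the latter value, with voom on the recovered reads, where the log2 fold change was -6.11.

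ENSRNOG00000060706, the other gene given as lower, has a recovered length of 82 bases and few reads. It was at 2.40, 12.6 and 6.14 TPM in sham, from 1, 6 and 3 reads, and was listed at 0 in the 3 OIR libraries. With 3 reads assumed over the OIR group, its level was 3.27-fold lower in OIR per depth. This figure leaves out the counting error of the 10 sham reads and is not a lower bound. In the retinas given the mimic, OIR replicate 3 was at 2.41 TPM, from 1 read, and sham replicate 2 was at 0. The log2 fold change was -2.79 (SE 0.66; limma adjusted p = 0.0219). This gene too passed the filter through the sham libraries alone, and its p is a description. The call was lost without sham replicate 2 or 3 (adjusted p 0.0809 and 0.0608) and without OIR replicate 2 or 3 (0.0556 and 0.0707).

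**Figure D1:**
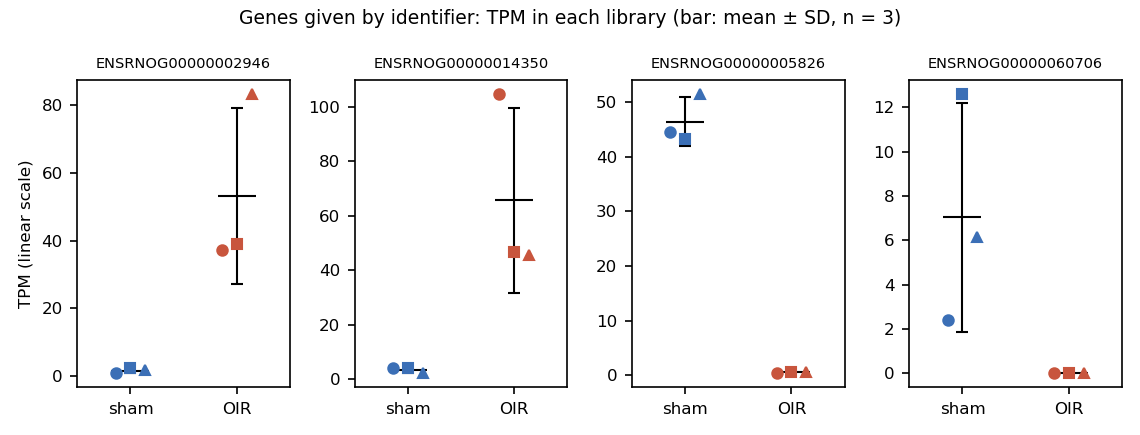
TPM (linear axis, a separate scale for each gene) of the 4 genes given by identifier in the 3 sham (blue) and 3 OIR (red) libraries; circles, squares and triangles are replicates 1, 2 and 3, and bars are the mean ± SD. The first gene runs from at most 2.20 TPM in sham to at least 37.3 TPM in OIR, and the third from at least 43.2 TPM in sham to at most 0.625 TPM in OIR.

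With scrambled RNA, higher genes changed by more than lower genes, an order that was reversed in the medians of the mimic libraries. The median absolute log2 fold change was 0.69 among the 1100 higher genes and 0.55 among the 628 lower ones. More than a 2-fold change was estimated for 313 of the higher and 48 of the lower genes. A 4-fold change or more was estimated for 44 higher and 4 lower genes. At the other end, 469 of the higher genes (42.6%) and 357 of the lower genes (56.8%) changed by less than 1.5-fold. The smallest called changes were a log2 fold change of 0.19 upwards and 0.17 downwards. Because 1 TPM was added before the logarithm was taken, folds of low genes are understated, and a gene at 1 TPM in sham cannot fall by more than 2-fold on this scale. Among genes with a mean of 10 TPM or more, where that limit weighs little, 137 of 735 higher genes and 17 of 475 lower genes passed 2-fold. Without OIR replicate 3, 188 higher and 35 lower genes passed 2-fold. With a pseudocount of 0.1 in place of 1, 405 higher and 80 lower genes did. Quantile normalisation gave 279 higher and 102 lower genes past 2-fold, arrayWeights 329 and 76, voom 446 and 94, and a filter of 5 TPM 191 and 30. The higher genes outnumbered the lower ones in each of these settings, by a ratio that depended on the setting.

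**Figure D2:**
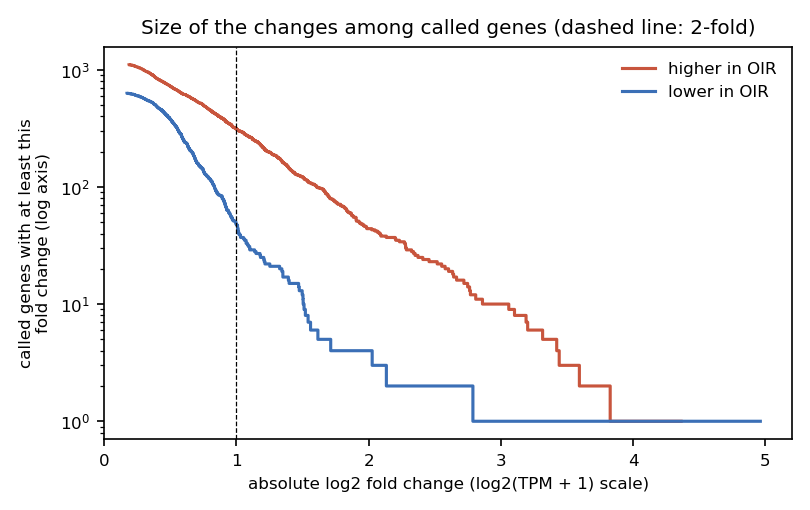
Number of called genes (log axis) with at least a given absolute log2 fold change, for genes higher (red) and lower (blue) in OIR. At the dashed line of 2-fold, 313 higher and 48 lower genes remain.

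The size of the changes also depended on the level of the gene. Among genes with a mean below 3 TPM, 132 of 2155 were higher and 41 were lower, with 79 and 16 past 2-fold. Between 30 and 100 TPM, 304 of 4535 were higher and 186 lower, with 44 and 2 past 2-fold. Between 100 and 300 TPM, 112 of 1523 were higher and 107 lower, with 13 and 0 past 2-fold. Above 1000 TPM, 9 of 80 genes were higher and 10 lower. Median standard errors fell with the level up to 300 TPM. They went from 0.25 on the log2 scale below 3 TPM to 0.09 between 30 and 100 TPM. The median gene had 15.5 reads per library in the first of these classes and 677 in the second. The same size of change was therefore easier to call between 30 and 100 TPM than below 3 TPM. The median standard error was 0.080 between 100 and 300 TPM. It rose to 0.086 between 300 and 1000 TPM and to 0.095 above 1000 TPM.

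**Figure D3:**
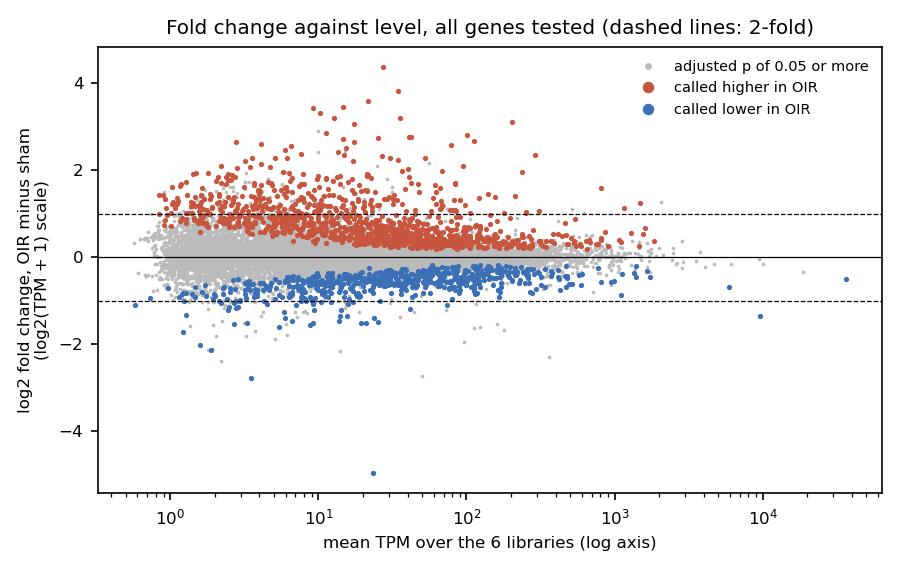
Log2 fold change of OIR against sham (log2(TPM + 1) scale) against the mean TPM over the 6 libraries (log axis) for the 15298 genes tested, with genes called higher in red and lower in blue. Points beyond the upper dashed line of 2-fold outnumber those beyond the lower one, 313 against 48 among called genes.

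The filter let some genes in through one group alone. In 122 genes the 3 OIR libraries reached 1 TPM and no sham library did, and 74 of these were called higher. In 43 genes the sham libraries alone reached it, and 16 of these were called lower. Such genes had to differ in level to be tested at all. Genes at the edge, with 3 of the 6 libraries at 1 TPM or more, numbered 513 and had a median level of 1.11 TPM. Those just outside, with 2 such libraries, numbered 531 and had a median of 0.794 TPM. No gene went from below 1 TPM in each sham library to 5 TPM or more in each OIR library. In the opposite direction there was a single such gene, ENSRNOG00000005826.

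The 15 genes that rose most had log2 fold changes from 2.75 to 4.36, and limma adjusted p-values from 0.000149 to 0.0472. They had a mean of at least 5 TPM in OIR and groups that did not overlap, by the rule that chose them. The gene at rank 5, which had the highest of these p-values, was below 1 TPM in each sham library and so was tested only because it was high in OIR. Their mean level in sham lay between 0.379 and 42.7 TPM with a median of 2.46 TPM, and in OIR between 18.1 and 362 TPM with a median of 45.0 TPM. Most of them were thus scarce in sham retinas. The ninth in rank was the most abundant, at 61.9, 42.6 and 23.5 TPM in sham and 505.6, 273.7 and 306 TPM in OIR. The twelfth in rank was the most even within OIR, at 184.9, 170.4 and 172.7 TPM, against 19.9 to 27.3 TPM in sham. The eighth was among the most uneven, at 18.1, 57.8 and 123.9 TPM in OIR against 3.96 to 5.90 TPM in sham.

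The 15 genes that fell most had log2 fold changes from -1.35 to -4.96, and adjusted p-values from 0.000297 to 0.0219. Apart from the pair given by identifier, none of them fell by as much as 4-fold on the log2(TPM + 1) scale. The other 2 genes of the 4 past that size were below the required mean of 5 TPM in sham. Their mean in sham lay between 5.36 and 13554 TPM, with a median of 20.6 TPM, and their median in OIR was 4.28 TPM. The third in rank was at 8.64, 9.07 and 8.15 TPM in sham and at 2.79, 1.98 and 1.73 TPM in OIR. The twelfth was at 39.0, 33.3 and 33.1 TPM in sham and at 11.9, 13.7 and 12.5 TPM in OIR. In both, the spread within each group was small beside the gap between the groups.

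The retinas given the mimic gave other libraries in which to look at the same 30 genes, though not independent ones. Their spread entered the fit that called the genes, so genes steady within the mimic groups were easier to call. The shares below are therefore a description. Of the 15 genes that rose most, 14 also had each OIR library above each sham library there, where 20.4% of the genes tested did. Their log2 differences with the mimic ran from 1.39 to 3.26 with a median of 2.58, against a median of 3.19 with scrambled RNA. The difference was smaller with the mimic in 13 of the 15, which were chosen for their size with scrambled RNA. Of the 15 genes that fell most, 13 had each OIR library below each sham library, where 16.4% of the genes tested did. The 2 exceptions were the genes given by identifier. The median difference of the 15 was -1.37 with the mimic and -1.50 with scrambled RNA. In 9 of these 15 the difference was smaller in size with the mimic. Among all called genes, 1009 of the 1100 higher (91.7%) and 579 of the 628 lower (92.2%) had groups apart in the same direction with the mimic. Of those past 2-fold, 287 of 313 higher genes and 36 of 48 lower genes did, a smaller share of the lower genes than among all 628. Over the 1100 higher genes the median log2 difference was 0.61 with the mimic, against 0.69 with scrambled RNA. Over the 628 lower genes it was -0.66 against -0.55, so with the mimic the lower genes had the larger median size. The column names of the first replicates of sham scrambled and sham mimic share a number, whose meaning the labels do not give, so those libraries may not be independent. All mimic column names carry the letter L and all scrambled ones the letter R. What these letters stand for and the RNA given cannot be told apart.

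**Figure D4:**
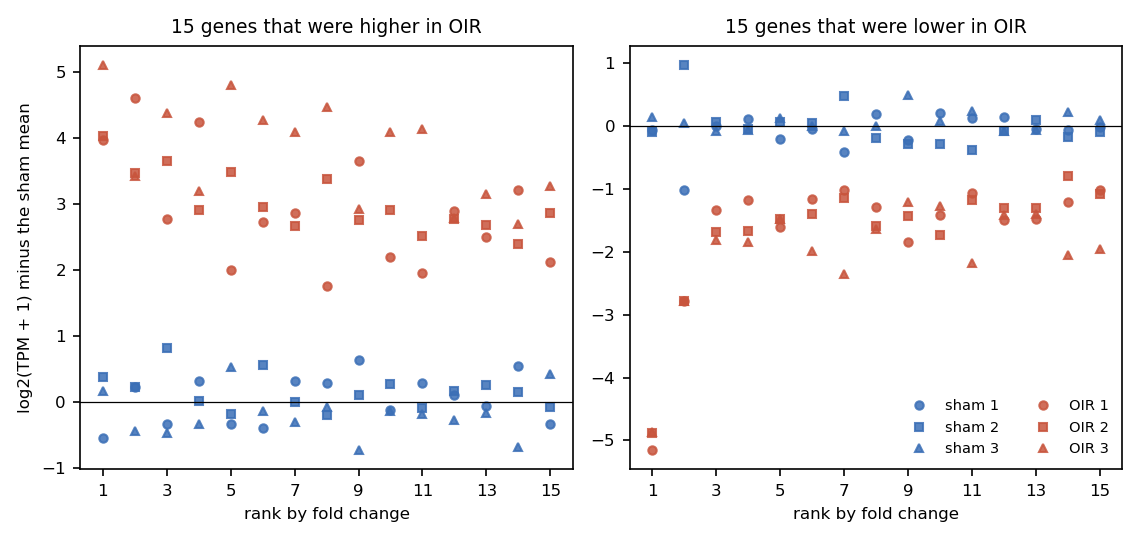
Level of the 15 genes that rose most (left) and fell most (right) in each library, as log2(TPM + 1) minus the sham mean of the gene, ordered by fold change; blue is sham, red is OIR, and circles, squares and triangles are replicates 1, 2 and 3. The red and blue points are apart in each gene, and the red points spread more widely on the left.

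OIR replicate 3 was often the library farthest from sham. Among the higher genes it was the highest OIR library in 767 (69.7%), against 200 for OIR replicate 1 and 133 for OIR replicate 2. Over all genes tested it was the highest of the 3 in 41.0%. Among the lower genes it was the lowest in 400 (63.7%), against 31.8% over all genes tested. The median log2 deviation of the higher genes from their sham mean was 0.58, 0.57 and 0.82 in OIR replicates 1 to 3. For the lower genes it was -0.47, -0.53 and -0.63. The common direction of the 3 OIR libraries was fixed by the choice of called genes, and replicate 3 had the largest median deviation in both groups of genes.

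The spread between OIR libraries was large for the genes that rose. The median SD of log2(TPM + 1) over the 3 libraries was 0.20 in OIR and 0.12 in sham for the higher genes, and OIR had the larger SD in 788 of 1100. For the lower genes the medians were 0.12 in OIR and 0.09 in sham. Over all genes tested they were 0.12 in OIR and 0.13 in sham, and OIR had the larger SD in 47.8%. These genes were called from the same libraries, so the shares are a description.

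The share of the transcripts held by the called genes differed between the directions. The higher genes were 7.19% of the genes tested and the lower genes 4.11%. The 1100 higher genes took 5.80%, 6.13% and 6.18% of the TPM in the sham libraries and 8.34%, 8.60% and 10.02% in the OIR libraries. The 628 lower genes took 12.8%, 12.5% and 13.0% in sham and 9.46%, 9.26% and 7.32% in OIR. The lower genes, though fewer, thus lost a larger share than the higher genes gained. The loss was carried to a large part by a few abundant genes. Without the 3 most abundant of them the lower genes took 6.46%, 6.37% and 6.34% in sham and 4.87%, 4.67% and 4.27% in OIR. Without their own 3 most abundant genes the higher genes took 5.41%, 5.70% and 5.74% in sham and 7.82%, 8.06% and 9.43% in OIR. On these terms the higher genes gained a larger share than the lower genes lost.

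The 3 most abundant of the lower genes were among the 10 most abundant over the 6 libraries, of which 3 were called lower and 0 higher. The most abundant gene of all stood at 42249, 41634 and 44833 TPM in sham and at 33920, 34189 and 23696 TPM in OIR. Its log2 fold change was -0.51 (SE 0.14; limma adjusted p = 0.0342). The gene at rank 4 stood at 13404, 12723 and 14537 TPM in sham and at 6664, 6416 and 3493 TPM in OIR. Its log2 fold change of -1.35 (SE 0.21, limma adjusted p 0.00388) was the largest among the 10. The gene at rank 7 stood at 7411, 7022 and 7401 TPM in sham and at 5315, 5333 and 3314 TPM in OIR (log2 fold change -0.68, SE 0.17, limma adjusted p 0.0257). The other 7 had log2 fold changes from -0.34 to 0.11 and were not called. Each of the 10 had its lowest OIR level in OIR replicate 3.

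Gene length, recovered together with the reads, differed between the called groups. The median length was 2049 bases for the higher genes, 2675 bases for the lower genes and 2195 bases for all genes tested. In the shortest of 5 classes with nearly equal numbers of genes, up to 1125 bases, 6.89% were higher and 1.83% lower. In the longest class, from 3877 bases, 4.97% were higher and 4.64% lower. Neither share moved steadily with length. The share called higher was largest from 1126 to 1836 bases, at 8.50%, and the share called lower from 2622 to 3876 bases, at 5.98%. The libraries themselves also differed with length. In the longest class the median deviation from the mean of the 6 libraries was 0.10 in sham replicate 1, -0.12 in sham replicate 3, 0.03 in OIR replicate 3 and -0.04 in OIR replicate 2. In the shortest class the OIR libraries lay at 0.04 to 0.07 and the sham libraries at -0.04 to -0.03. With a smooth trend in length removed from each library, a setting chosen after seeing the data, 1132 genes were higher and 1055 lower. These held 961 of the 1100 and 615 of the 628 genes. The median fold change under that setting was 0.01, but removing the trend also centres each library, which largely fixes this value in advance. Median-ratio scaling, which does not use length, gave 997 higher and 987 lower genes and a median of 0.0076. What part of the shift in the counts belongs to length was not tested.

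**Figure D5:**
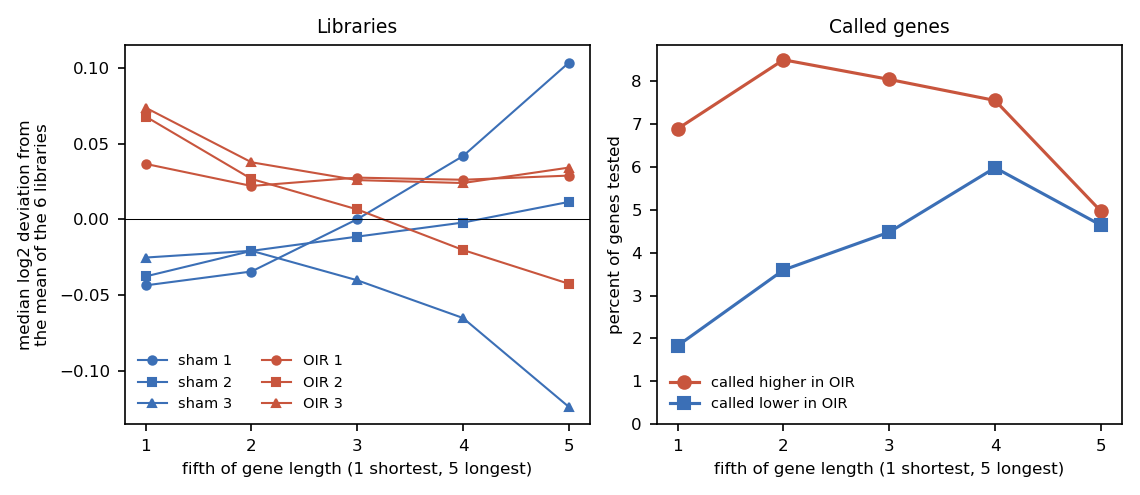
Left, median log2 deviation of each library from the mean of the 6 libraries in 5 classes of gene length, with circles, squares and triangles for replicates 1, 2 and 3 of sham (blue) and OIR (red); right, percent of the tested genes of each class that were called. Sham replicates 1 and 3 part with length, from 0.10 to -0.12 in the longest class, and the share called lower is smallest in the shortest class, at 1.83%.

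Most genes tested were not shown to change. The 95% limma interval of the fold change, not adjusted for the number of genes, lay within 2-fold in either direction for 84.9% of the genes and within 1.5-fold for 61.7%. Among the 10398 genes with a mean of 10 TPM or more, it lay within 1.5-fold for 78.1%. The median half-width of the interval was 0.29 on the log2 scale.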

How the data were processed

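Per the labels' protocols, retinal RNA was read single-end on an Illumina machine from what they call miRNA libraries, while the table lists Ensembl genes. The authors deposited TPM values in 1 table of 12 columns. TopHat, Cufflinks, Cuffdiff, FastQC and the build rn6 are named, without roles, per the submitters' processing notes. The reference table holds 0 Ensembl identifiers, so the planned gene lists were not used.

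A linear model of log2(TPM + 1) was fitted in limma 3.58.1 (R 4.3.3) over all 12 libraries with 4 group means and trended, robust eBayes. P-values were Benjamini-Hochberg adjusted over 15298 genes. Whole reads (tolerance 0.02) were recovered for 22310 of 22310 genes above 0; reads and length of a gene could both be a multiple of those given. The fit and the recovery were tested on simulated data.

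Genes described singly were the 10 most abundant and the 15 of largest fold change in each direction that passed the threshold, did not overlap between groups and averaged 5 TPM or more in the higher group. The first 2 in each direction carry their identifier. Members and lists were chosen with earlier results of these data known. Alternatives changed the pseudocount, the filter, the scaling, the libraries in the fit, the replicate block, the variance model and the library weights. Voom on recovered reads, the length trend and the 6 libraries without OIR replicate 3 were chosen after seeing the data.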

Additional observations from a re-analysis of the deposited data

How the results depend on the processing

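Of the counts of called genes, 1100 higher and 628 lower, those under both pseudocounts, no filter, the filter of 5 TPM, no trend or robust option, the 6 libraries alone and voom (added) were within 1.5 times of these. ArrayWeights gave 2098 higher and 1344 lower genes. Median-ratio scaling gave 987 lower genes, quantile normalisation 1225 and the removal of a trend with length (added) 1055. Leaving out 1 of the 6 libraries gave 566 to 962 higher and 274 to 545 lower genes. In the 6 libraries alone without OIR replicate 3 (added), 463 were higher and 331 lower. Whether the numbers in the titles pair the libraries was left undecided. Deviations of same-numbered sham and OIR libraries had correlations of -0.0242 to 0.225, highest for replicate 1. Not every library correlated best with its own number, and with 3 libraries a group these values cannot decide it. With the replicate block, fitted in the 6 scrambled libraries alone, 584 genes were higher and 442 lower, of which 208 and 44 passed 2-fold. Without the block, the same 6 libraries gave 747 higher and 599 lower genes. The cause of these differences was not tested, and the fits that leave libraries out also rest on fewer libraries. The rescaling without crystallin, haemoglobin and mitochondrial genes was not run, and ENSRNOG00000060706 was not tested with the filter of 5 TPM. No gene given by identifier changed its direction. Depth limits genes near 1 TPM most, where a value rests on few reads.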

Other observations

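The 15 genes that rose most divided into those highest in OIR scrambled replicate 1, which were 5, and those highest in OIR scrambled replicate 3, which were 10. This division was made after the values were seen and was not tested. All 5 of the former were higher in sham scrambled replicate 1 than in sham scrambled replicate 3, as were 6 of the latter. Over all genes tested, the same held for 72.4% of those highest in OIR scrambled replicate 1 and 56.9% of those highest in OIR scrambled replicate 3. In retinas given the mimic, OIR mimic replicate 1 was the highest OIR library in all 5 of the former and in 9 of the latter, against 52.8% and 52.1% of all genes tested with the same highest library. The median log2 difference between OIR and sham for the 5 genes was 3.10 in the scrambled libraries and 1.82 in the mimic libraries. For the 10 genes it was 3.20 and 2.82.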
